A study of Mus musculus with 76 samples.

Results

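The genes described here are the nuclear-encoded genes of oxidative phosphorylation in subcutaneous mouse tumors given extracellular or intracellular catalase. They were chosen by symbol: protein-coding genes that start with Nduf, Sdha to Sdhd, Uqcr, Cox4 to Cox8 or Atp5, without Cox6a2, with a mean of at least 10 counts per tumor. Of 100 symbols that fit the letters, 93 passed the limit, out of 55536 genes in the count table. By complex they were 38 of complex I, 4 of complex II, 8 of complex III, 14 of complex IV and 17 of complex V. The letters also bring in 8 complex I assembly factors (Ndufaf1 to Ndufaf8) and 4 complex II assembly factors (Sdhaf1 to Sdhaf4), which are not subunits and were kept as the rule reads. The 14 of complex IV include Cox7a2l, a supercomplex factor, and Cox5b-ps, a near copy of Cox5b. The rule itself uses no measured difference between groups, but it was set with earlier results of these data known. The 3 members with the lowest means were Cox8b at 20.7, Atp5g2 at 32.6 and Sdhaf1 at 36.3 counts per tumor. The 3 highest of the genes left out were Cox6b2 at 1.68, Ndufa4l2 at 1.53 and a second gene identifier for Atp5o at 0.342 counts per tumor. Cox4i2 had 0.158 counts per tumor, and Cox7b2, Cox8c and Ndufb11b had no count in any tumor.

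The 38 tumors fell into 7 groups, all in BALB/c mice with a flank tumor and all harvested on day 8 by the labels, whose days are used here and differ from those in the study's text. Mice with CT26, a colon carcinoma line, or with 4T1, a mammary carcinoma line, received on day 6 an intratumoral dose of 20 µg CAT-ABP with 100 µg alum, or alum alone. CAT-ABP is catalase fused to an alum-binding peptide, meant to anchor the enzyme to alum and so retain it in the tumor. The study calls it extracellular catalase (EC CAT), and uptake into cells was not measured in these data. These are the CT26 EC CAT (n = 6), CT26 alum (n = 5), 4T1 EC CAT (n = 6) and 4T1 alum (n = 5) groups. 4T1-CAT cells carry a doxycycline-inducible human catalase with GFP (IC CAT), and 4T1-control cells carry GFP alone, and mice with either line ate doxycycline feed from day 4. They make the 4T1-CAT EC CAT (n = 5), 4T1-CAT alum (n = 5) and 4T1-control alum (n = 6) groups. Alum was thus given in every group, and no group is untreated. Each engineered line is 1 sorted lentiviral pool, and the doxycycline diet separates both from parental 4T1.

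Oxidative phosphorylation passes electrons from NADH (complex I) and succinate (complex II) through ubiquinone, complex III and cytochrome c to oxygen at complex IV, and ATP synthase (complex V) uses the proton gradient built on the way. Most subunits are nuclear genes and are imported, while a small core set is encoded by mitochondrial DNA. Complexes I and III are known sources of superoxide, from which hydrogen peroxide, the substrate of catalase, is formed. In promoters of respiratory genes, sites of the nuclear respiratory factors NRF1 and GABP (NRF2) are well described.

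The NRF1-type palindrome, spelled GCGC, any base, T and GCGC and searched on both strands in the 250 bases before the RefSeq start of the gene, was held by 13 of the 79 members with an entry in the RefSeq promoter table (16.5%) and by 3.86% of 27025 promoters. The GABP-type word CCGGAAG was held by 15 of 79 members (19%) and by 7.05% of all promoters, and 3 members held both. The TATA word TATAAA was held by 6 of 79 members (7.59%) and by 13% of all, and the E-box CACGTG by 6 (7.59%) and by 6.05% of all. These letters are a description and not sites. Among the 17 promoters of genes that differed between CT26 and 4T1 in both sets of tumors below, 4 held the first and 3 the second. Of the promoters among the 17 that hold a word, 3 are shown as examples, not picked by size of change. They are Cox6b1 (chr7:30626115-30626364, minus strand), Cox6a1 (chr5:115348959-115349208, minus strand) and Ndufs6 (chr13:73328483-73328732, minus strand), on build GRCm38.p6, read 5′ to 3′ toward the gene. Capitals mark the matches to either word on either strand.
Cox6b1: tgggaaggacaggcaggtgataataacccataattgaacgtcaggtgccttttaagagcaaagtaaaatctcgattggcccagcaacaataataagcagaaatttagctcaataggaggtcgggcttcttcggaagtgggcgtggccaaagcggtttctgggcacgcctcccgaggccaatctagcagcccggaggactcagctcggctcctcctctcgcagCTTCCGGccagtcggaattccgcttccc
Cox6a1: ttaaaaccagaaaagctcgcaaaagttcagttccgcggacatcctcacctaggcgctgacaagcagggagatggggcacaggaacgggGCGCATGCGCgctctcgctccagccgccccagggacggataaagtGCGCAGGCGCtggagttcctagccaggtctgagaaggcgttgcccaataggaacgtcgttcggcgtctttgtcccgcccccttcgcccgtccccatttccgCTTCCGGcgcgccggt
Ndufs6: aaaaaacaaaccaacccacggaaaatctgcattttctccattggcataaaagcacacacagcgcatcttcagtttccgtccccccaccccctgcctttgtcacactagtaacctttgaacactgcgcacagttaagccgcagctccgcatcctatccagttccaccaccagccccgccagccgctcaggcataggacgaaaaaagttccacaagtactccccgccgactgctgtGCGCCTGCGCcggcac
Cox6a1 holds both words, Cox6b1 the second alone and Ndufs6 the first alone.

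Tumor totals ranged from 493044 to 9077549 counts, with a median of 4827388, after the 2 technical libraries of each tumor were summed. All 93 members passed the low count filter of every comparison below. The line was checked by its markers. Of 4 epithelial genes tested, all 4 were lower in CT26 than in 4T1 in each treatment, with a median log2 fold change of -6.57 under alum and -6.69 under EC CAT. T cell genes differed the other way, with 4 of 4 higher in CT26 in each treatment. Under alum and then EC CAT, macrophage genes had 2 and 3 of 6 higher and none lower, neutrophil genes 1 and 2 of 5 higher, fibroblast genes 4 of 6 lower and 1 higher in both, endothelial genes 1 and 2 of 5 lower, erythroid genes 2 and 0 of 4 higher, and the 1 adipocyte gene tested was higher in both. No brown adipocyte gene passed the filter. Among these lists none had a called gene in any other comparison, by edgeR, and the part of cell makeup in the results was not tested. In whole tumors, fewer cells of a type and less RNA per cell cannot be told apart. The first part of the libraries' index tags took 4 values, called index pools here. This grouping was read from the tags alone, and no label says what it stands for. All CT26 and 4T1 EC CAT tumors with 2 of the 4T1 alum tumors used another pair of index pools than the remaining 19 tumors. 1 index tag is listed for 2 libraries, of 4T1-CAT alum replicates 2 and 3, whose counts differ and which correlated with each other at r = 0.935 and with the other library of their own tumor at 0.953 and 0.940.

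The members together took 3.60% of all counts (SD 0.381, n = 38 tumors), from 2.77% to 4.29%. Their mean log2 CPM (TMM-normalised counts scaled to library size, prior count 2) was 7.66 ± 0.32 in CT26 alum (SD, n = 5) and 7.79 ± 0.30 in CT26 EC CAT (n = 6). In the 4T1 line it was 7.42 ± 0.28 under alum (n = 5) and 7.39 ± 0.21 under EC CAT (n = 6). In the engineered lines it was 7.50 ± 0.23 in 4T1-control alum (n = 6), 7.57 ± 0.28 in 4T1-CAT alum (n = 5) and 7.30 ± 0.25 in 4T1-CAT EC CAT (n = 5). The order from high to low was CT26 EC CAT, CT26 alum, 4T1-CAT alum, 4T1-control alum, 4T1 alum, 4T1 EC CAT and 4T1-CAT EC CAT, and each step in it was smaller than the SD of the neighbours. By share of counts the order differed: the group means were 3.84% in 4T1-control alum, 3.75% in 4T1-CAT alum, 3.71% in CT26 EC CAT, 3.61% in 4T1 alum, 3.47% in 4T1 EC CAT, 3.42% in CT26 alum and 3.36% in 4T1-CAT EC CAT, with SDs of 0.283 to 0.439. CT26 alum was thus above 4T1 alum by mean log2 CPM and below it by share. Over all 7 groups, 53 of 93 members (57%) passed an adjusted p of 0.05 in edgeR's quasi-likelihood F test, against 54.7% of the 14646 genes tested, and 56 (60.2%, against 58.8%) had an unadjusted p under 0.05. Over the 5 groups of 4T1-derived tumors no member passed (0 of 93, with 8 at an unadjusted p under 0.05, 8.6% against 14.1%, and 1 by DESeq2), against 0.382% of genes.

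**Figure D1:**
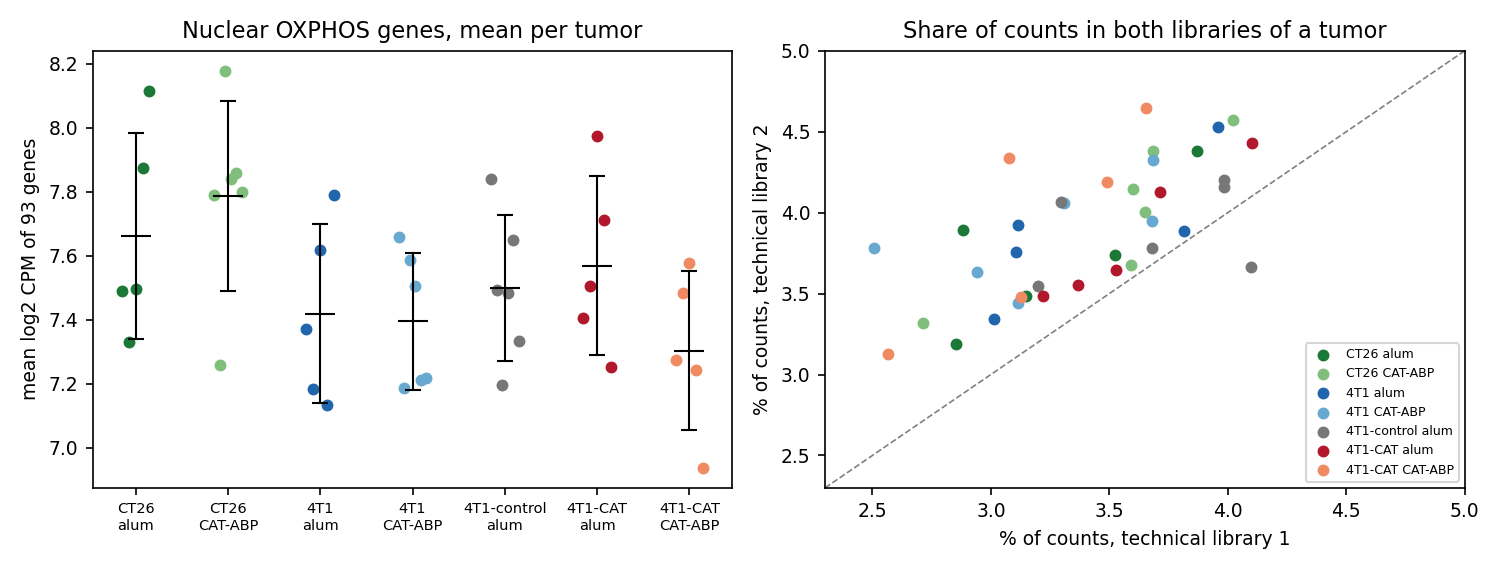
Left, mean log2 CPM of the 93 genes in each tumor (points) with group mean and SD (bars), for the 7 groups. Right, the percent of counts that the 93 genes take in technical library 1 against technical library 2 of each tumor, with the line of equality dashed; 37 of 38 tumors lie above it.

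Within groups the members moved together, apart from a small set. Each gene's deviations from its group means over 38 tumors were set against the mean of the other members: the median Pearson r was 0.91, and 80 of 93 genes had r over 0.5. By contrast, 11 genes had r below 0. Among them were Sdha (-0.39), the flavoprotein of complex II, Atp5a1 (-0.38) and Atp5b (-0.37), the alpha and beta subunits of ATP synthase, and Uqcrfs1 (-0.29), the Rieske protein of complex III. Ndufa10 (-0.29), Ndufs3 (-0.16), Cox8b (-0.16), Sdhaf1 (-0.11), Ndufaf6 (-0.05) and Ndufs1 (-0.000585) were also below 0. Of the 11, 9 were below 0 in the 11 CT26 tumors and 10 in the 27 4T1-derived tumors, and none of the other 80 was below 0 in either. Other core subunits were among the 80, such as Sdhb at 0.98, Cox4i1 at 0.92, Uqcrc2 at 0.83, Uqcrc1 at 0.72 and Ndufv1 at 0.63. Summed exon length had a median of 2490 bases in the 11 and 1559.5 bases in the 80. Uqcrfs1, Ndufaf6 and Cox8b, at 1363, 1235 and 360 bases, are shorter than the latter. Mean CPM had a median of 82.9 in the 11 and 275 in the 80. Cox8b, Sdhaf1 and Ndufaf6 were low, at 4.2, 7.21 and 8.15 CPM, as was Cox5b-ps of the 80, at 9.96 CPM. These values are a description over tumors that share libraries and normalisation.

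**Figure D2:**
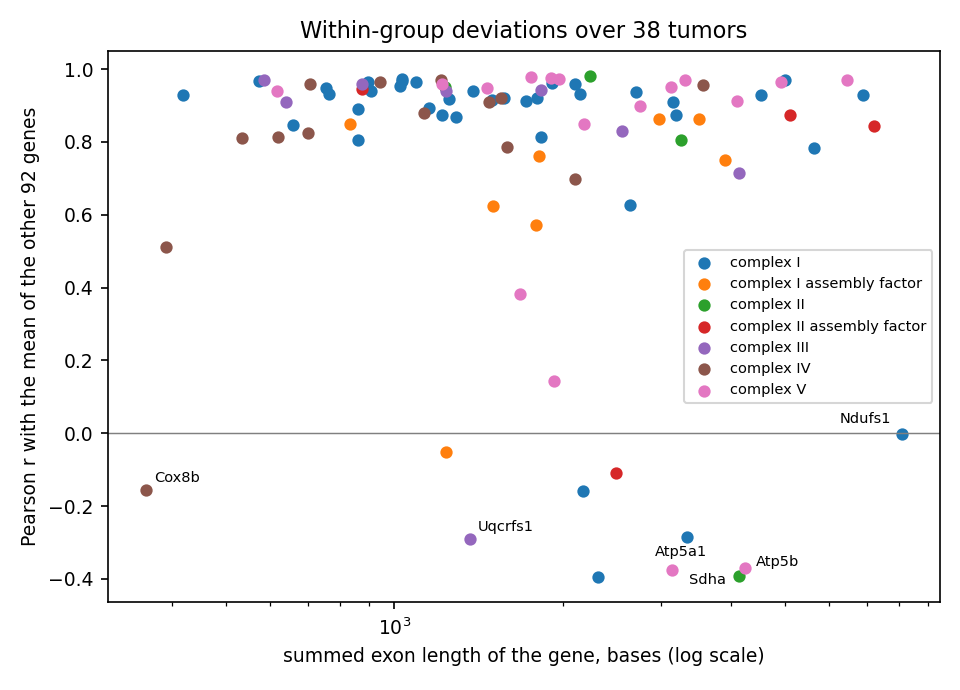
Pearson r of each gene's within-group deviations with the mean of the other 92 genes over 38 tumors (vertical), against summed exon length on a log scale (horizontal), by complex. 80 genes lie above 0.5 and 11 below 0.

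The mean of the members followed other features of the libraries. Unlike the values above, these were taken over tumors pooled across groups, without removing group means. Each r, with its p, thus covers differences between groups as well as within them. With the mean of 81 cytosolic ribosomal protein genes, Pearson r was 0.98 in 11 CT26 tumors (Spearman 0.97) and 0.94 in 27 4T1-derived tumors (Spearman 0.94). The permutation p of r was 1e-05 in each, the smallest that the draws can give (adjusted 4e-05 over 8 relations), and that of rho 2e-05 and 1e-05 (adjusted 5.3e-05 and 4e-05). Without the 2 tumors farthest from the median, r was 0.97 and 0.93. With the mean of 3571 long genes (exon length over 6424 bases), r was -0.94 in CT26 tumors (Spearman -0.93, permutation p 3e-05, adjusted 6e-05) and -0.51 in 4T1-derived tumors (Spearman -0.84, permutation p 0.00536, adjusted 0.00715), and -0.88 and -0.90 without the 2 farthest tumors. The permutation p of rho was 0.00012 and 1e-05 (adjusted 0.000192 and 4e-05). With the share of counts from mitochondrial DNA, r was 0.91 and 0.74 (Spearman 0.92 and 0.76, permutation p 6e-05 and 3e-05, adjusted 9.6e-05 and 6e-05), and 0.89 and 0.72 without the 2 farthest, with a permutation p of rho of 0.00027 and 3e-05 (adjusted 0.00036 and 6e-05). With the log2 total count, r was 0.16 and -0.14 (Spearman 0.027 and -0.22, permutation p 0.664 and 0.499, adjusted 0.664 and 0.57), and 0.067 and -0.15 without the 2 farthest tumors, with a permutation p of rho of 0.946 and 0.266 (adjusted 0.946 and 0.304). Within index pools of the 4T1-derived tumors, r with the ribosomal genes was 0.95 (n = 19) and 0.96 (n = 8), r with the long genes was -0.45 and -0.71, and r with the mitochondrial share was 0.75 and 0.71. Outside the list, the genes most like the members' mean over all 38 tumors were Exosc8 (r = 0.97), Gm12481 (0.97), Grpel1 (0.97), Rpl38 (0.96) and Dnajc15 (0.96), given as a description. All scores set against each other in this paragraph come from the same libraries. Small p-values are thus no measure of a link beyond what shared counts bring.

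Technical library 2 of a tumor gave the members a larger share of counts than library 1 in 37 of 38 tumors, at 3.89% ± 0.40 against 3.42% ± 0.43 (SD, n = 38). Library 1 supplied 74.3% ± 15.5 of the counts in 4T1-CAT EC CAT (SD, n = 5), 36.4% ± 5.4 in 4T1-CAT alum (n = 5) and 21.8% ± 16.1 in 4T1-control alum (n = 6), whereas it supplied 63.7% ± 4.3 in CT26 EC CAT (n = 6), 64.8% ± 6.0 in CT26 alum (n = 5), 65.8% ± 18.4 in 4T1 EC CAT (n = 6) and 66.2% ± 26.7 in 4T1 alum (n = 5). Sums over both libraries therefore weigh them unequally between tumors, and on average between the engineered groups, and values of each library alone are given beside the comparisons. These values are the check made of it.

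Between the tumor lines, members of every complex but complex II passed the test. In both treatments CT26 had more RNA than 4T1 for 20 members, Ndufa2, Cox6b1 and Uqcrb among them, and less for Ndufb9. The share of members called was below that of all genes in each treatment, and under alum the share called higher was near it. Under alum, 26 of 93 members passed the test (28%, against 42.4% of 12817 genes), 22 of them higher in CT26 (23.7%, against 21.3%) and 4 lower (4.3%, against 21.1%). An unadjusted p under 0.05 was reached by 33 members (35.5%, against 50.2%). Under EC CAT, 38 members passed (40.9%, against 45.5% of 13016 genes), 36 higher (38.7%, against 21.8%) and 2 lower (2.15%, against 23.7%), and 47 reached an unadjusted p under 0.05 (50.5%, against 52.1%). The median log2 fold change of the members was 0.26 under alum and 0.36 under EC CAT, where that of all genes was 0.02 and -0.02. Genes in the lowest quartile of exon length, which holds 64 of the 93 members, had medians of 0.22 in both, and with the trend over gene length removed the members' medians were 0.14 and 0.18. Library 1 alone gave 18 members and a median of 0.30 under alum and 37 members and 0.44 under EC CAT, and library 2 alone gave 17 and 0.27, then 30 and 0.26. All tumors of the EC CAT pair came from 1 pair of index pools. Under alum 3 of the 5 4T1 tumors did not, and with the pool as a block 21 members passed, 20 higher and 1 lower, with a median of 0.41. Without CT26 alum replicate 4, 4T1 alum replicate 2 or 4T1 alum replicate 4, the alum count was 16, 15 and 16, and without CT26 EC CAT replicate 2 the EC CAT count was 58. Counts for single libraries, the pool block and omitted tumors are of members alone, without the share of all genes in the same setting.

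Both pairs of groups share no tumor, so they can be set side by side. 21 members passed in both, all in the same direction, 20 higher (21.5%, against 16.7% of genes) and 1 lower (1.08%, against 17.9%). All 4350 genes that passed in both also shared their direction. The 21 are 80.8% of the members passing under alum (against 81.9% of genes) and 55.3% of those passing under EC CAT (against 75.3%). They are 22.6% of the members, against 34.6% of 12578 genes tested in both. The sign was shared by 80 of 93 members (86%), against 86.2% of all genes. The 20 were Ndufa1, Ndufa2, Ndufa3, Ndufa5, Ndufa6, Ndufb2, Ndufb11, Ndufc2 and Ndufs6 of complex I with the assembly factors Ndufaf4 and Ndufaf5, Uqcrb, Uqcrc2 and Uqcrh of complex III, Cox5b, Cox6a1, Cox6b1, Cox7a1 and Cox7b of complex IV, and Atp5j2 of complex V. By complex, with Ndufa4 counted in complex I by its name, complex I had 10 higher and 3 lower of 38 under alum and 15 and 1 under EC CAT, complex III 3 and 1 of 8 and then 4 and 0, complex IV 6 and 0 of 14 and then 7 and 0, and complex V 1 and 0 of 17 and then 7 and 0. Cox5b-ps is among the complex IV calls under alum and Cox7a2l among those under EC CAT. Complex II had none of 4 in either treatment, by edgeR at an adjusted or an unadjusted p of 0.05 or by DESeq2.

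**Figure D3:**
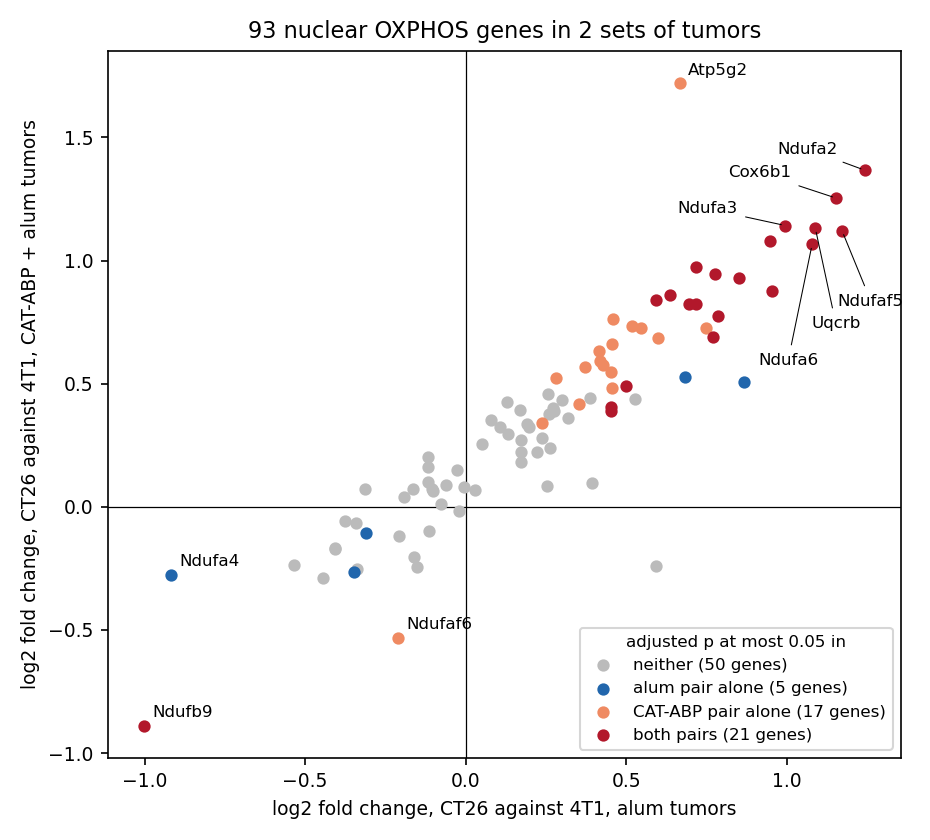
Log2 fold change of CT26 against 4T1 for the 93 genes under alum (horizontal) and under CAT-ABP + alum (vertical), colored by the pair in which the adjusted p was at most 0.05. 21 genes passed in both; 20 sit in the upper right and Ndufb9 in the lower left.

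Ndufa2, a small accessory subunit of complex I, had the largest shared difference. It measured 614, 546, 661, 949.7 and 1214 CPM in the 5 CT26 alum tumors and 337, 291, 391, 246 and 419.6 CPM in the 5 4T1 alum tumors. Ndufa2 in the EC CAT tumors was 541 CPM at the lowest, 883 at the median and 1227 at the highest in CT26 and 262 CPM at the lowest, 320.4 at the median and 423 at the highest in 4T1 (n = 6 each). No tumor of one line reached into the range of the other. The log2 fold change was 1.24 ± 0.23 (SE) under alum (adjusted p = 4.78e-04) and 1.37 ± 0.19 under EC CAT (adjusted p = 1.35e-05), by edgeR. Ndufa6, an accessory subunit of the LYR family, showed the same order. It measured 238, 229, 234, 330.5 and 401 CPM in the 5 CT26 alum tumors and 135, 100.3, 173, 103 and 168 CPM in the 5 4T1 alum tumors. Ndufa6 in the EC CAT tumors was 195 CPM at the lowest, 289 at the median and 399.6 at the highest in CT26 and 116 CPM at the lowest, 131 at the median and 184 at the highest in 4T1 (n = 6 each). Here too the lines did not overlap. The log2 fold change was 1.08 ± 0.21 (SE) under alum (adjusted p = 6.46e-04) and 1.07 ± 0.17 under EC CAT (adjusted p = 5.48e-05), by edgeR. Ndufa3, a further accessory subunit, averaged 936 ± 263 CPM in CT26 and 469.8 ± 124 CPM in 4T1 under alum (SD, n = 5 each), and 1071 ± 287 CPM and 471 ± 105 CPM under EC CAT (n = 6 each). Its log2 fold changes were 1.00 ± 0.22 and 1.14 ± 0.20 (SE), with no overlap between lines. The assembly factor Ndufaf5, an arginine hydroxylase acting on a complex I subunit, averaged 28.8 ± 8.6 CPM and 12.5 ± 3.22 CPM under alum, with log2 fold changes of 1.17 ± 0.23 and, under EC CAT, 1.12 ± 0.20 (SE).

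Cox6b1, the complex IV subunit on the intermembrane side whose promoter is shown above (chr7:30616861-30626151, GRCm38), was the largest of complex IV. It measured 744, 754, 765, 1133 and 1384 CPM in the 5 CT26 alum tumors and 411, 307, 527, 314 and 589 CPM in the 5 4T1 alum tumors. Cox6b1 in the EC CAT tumors was 589.5 CPM at the lowest, 1036 at the median and 1293 at the highest in CT26 and 319.9 CPM at the lowest, 408 at the median and 505 at the highest in 4T1 (n = 6 each). The lines did not overlap in either treatment. The log2 fold change was 1.15 ± 0.24 (SE) under alum (adjusted p = 0.00112) and 1.25 ± 0.19 under EC CAT (adjusted p = 4.29e-05), by edgeR. Uqcrb, a complex III subunit that borders the ubiquinone site (chr13:66900617-66905378), was the largest of complex III. It measured 837, 688, 788, 1189.7 and 1513 CPM in the 5 CT26 alum tumors and 439, 361, 556, 343 and 660.2 CPM in the 5 4T1 alum tumors. Uqcrb in the EC CAT tumors was 639 CPM at the lowest, 1063 at the median and 1434 at the highest in CT26 and 367 CPM at the lowest, 449 at the median and 582 at the highest in 4T1 (n = 6 each). Again the highest 4T1 tumor lay below the lowest CT26 tumor. The log2 fold change was 1.09 ± 0.25 (SE) under alum (adjusted p = 0.00222) and 1.13 ± 0.20 under EC CAT (adjusted p = 1.50e-04), by edgeR. Of all members, 10 did not overlap between the lines under alum and 10 under EC CAT (10.8% each, against 28.6% and 21.4% of 14646 genes). Groups that do not overlap always give the smallest p that their sizes allow in the exact permutation test on log2 CPM. That p is 0.00794 under alum and 0.00216 under EC CAT (two-sided), and it adds nothing to the lack of overlap.

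Ndufb9, an accessory subunit of the complex I membrane arm (chr15:58933756-58939488), was lower in CT26 in both. It measured 499, 379, 501, 721 and 880.5 CPM in the 5 CT26 alum tumors and 1135, 1001, 1424, 910.3 and 1495 CPM in the 5 4T1 alum tumors. Ndufb9 in the EC CAT tumors was 420.1 CPM at the lowest, 656 at the median and 897 at the highest in CT26 and 954 CPM at the lowest, 1176 at the median and 1409.7 at the highest in 4T1 (n = 6 each). All 4T1 tumors were above all CT26 tumors. The log2 fold change was -1.0004 ± 0.23 (SE) under alum (adjusted p = 0.00277) and -0.89 ± 0.18 under EC CAT (adjusted p = 5.52e-04), by edgeR. Ndufa4, counted here under complex I by its name but now placed with complex IV, measured 736, 638, 786, 1069 and 1470.5 CPM in CT26 alum and 1788, 1492, 1967, 1310.2 and 2320.4 CPM in 4T1 alum tumors. Under EC CAT it measured 627 CPM at the lowest, 1309 at the median and 2115 at the highest in CT26 and 1229 CPM at the lowest, 1539 at the median and 2091 at the highest in 4T1, where the lines overlapped widely. Its log2 fold change passed under alum at -0.92 ± 0.24 (SE, adjusted p = 0.00639) and not under EC CAT at -0.28 ± 0.24 (adjusted p = 0.364). The difference between the treatments, tested as an interaction, was 0.67 ± 0.35 (adjusted p = 1.00), and with the pool as a block the alum value was -0.80 and did not pass.

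Other lower calls were close to the threshold. Uqcrfs1 averaged 71.6 ± 6.99 CPM in CT26 alum and 91.3 ± 10.5 CPM in 4T1 alum (SD, n = 5 each), at -0.35 ± 0.13 log2 (SE, adjusted p = 0.0395). Ndufs1, the iron-sulfur subunit of complex I that takes part in NADH oxidation, averaged 62.7 ± 6.51 CPM and 77.9 ± 3.9 CPM, at -0.31 ± 0.12 (adjusted p = 0.0444). Both failed under EC CAT, at -0.27 ± 0.11 (adjusted p = 0.0662) and -0.11 ± 0.14 (adjusted p = 0.56), and Uqcrfs1 failed without 6 of the 10 single tumors and Ndufs1 without 8 of them. The assembly factor Ndufaf6 passed under EC CAT alone, at -0.53 ± 0.21 (adjusted p = 0.0456), and failed without 10 of the 12 single tumors. Atp5g2, 1 of the genes for the c subunit of ATP synthase, had the largest single value, 1.72 ± 0.47 under EC CAT (adjusted p = 0.00659) and 0.67 ± 0.30 under alum (adjusted p = 0.0893). It is also a low gene, at 4.58 CPM at the lowest, 11.1 at the median and 25.3 at the highest in CT26 EC CAT and 0.191 CPM at the lowest, 3.97 at the median and 9.59 at the highest in 4T1 EC CAT tumors, and the lines overlapped.

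**Figure D4:**
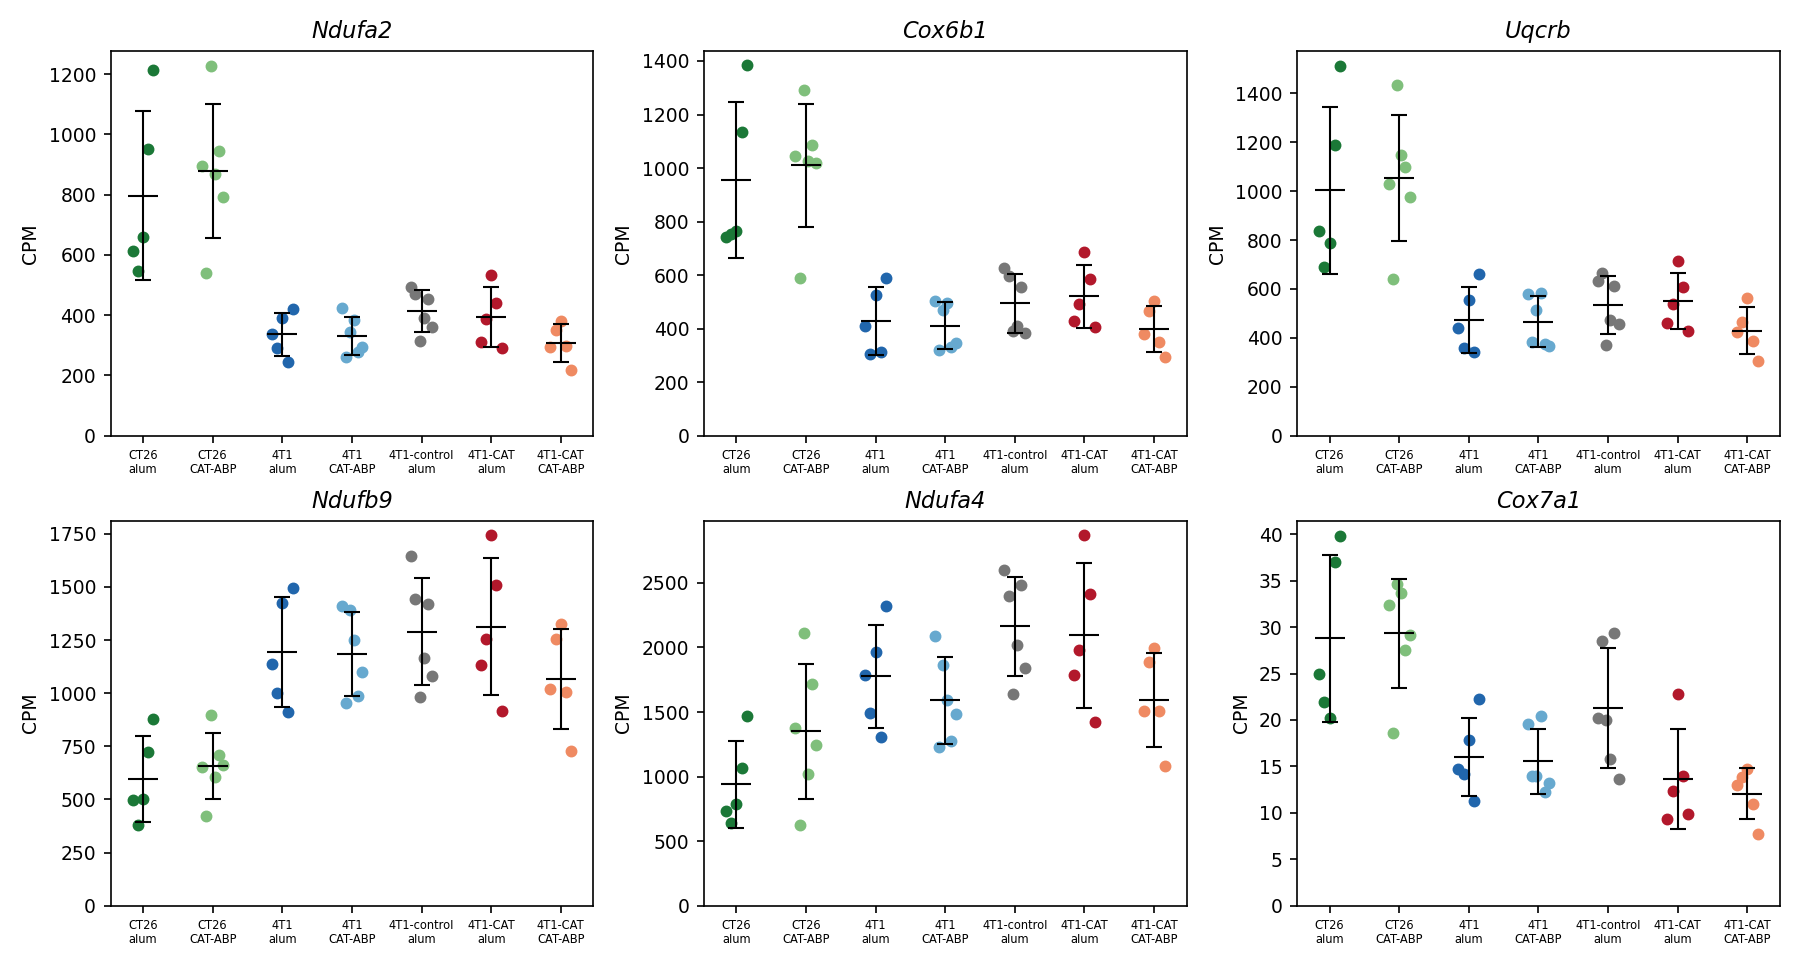
CPM of 6 members in each tumor (points) with group mean and SD (bars), for the 7 groups; each vertical axis starts at 0. Ndufa2, Cox6b1 and Uqcrb are higher in both CT26 groups than in both 4T1 groups, Ndufb9 is lower, and Ndufa4 overlaps under CAT-ABP.

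Of a set of core genes (Ndufs1, Ndufv1, Sdha, Sdhb, Uqcrc1, Uqcrfs1, Cox4i1, Cox5a, Atp5a1 and Atp5b), Ndufs1 and Uqcrfs1 passed between lines. Core subunits outside that set passed too: Uqcrc2, a core protein of complex III, at 0.45 ± 0.17 under alum (SE, adjusted p = 0.0477) and 0.40 ± 0.14 under EC CAT (adjusted p = 0.0221), and Atp5c1, the gamma subunit of ATP synthase, at 0.52 ± 0.18 under EC CAT (adjusted p = 0.0269) but not under alum (adjusted p = 0.362). Both were singled out after their values were seen. Sdha averaged 124 ± 7.37 CPM in CT26 alum, 126 ± 11.5 CPM in CT26 EC CAT, 134 ± 6.39 CPM in 4T1 alum and 117 ± 14.8 CPM in 4T1 EC CAT (SD, n = 5, 6, 5 and 6). Atp5a1 averaged 354 ± 24.3 CPM, 366 ± 28.4 CPM, 384 ± 22.8 CPM and 333 ± 64.8 CPM in the same order, and Atp5b 711 ± 78.4 CPM, 740.5 ± 56.7 CPM, 742 ± 69.1 CPM and 679 ± 111 CPM. Sdha, Atp5a1 and Atp5b did not pass in either treatment, nor did Sdhb, Ndufv1, Uqcrc1, Cox4i1 or Cox5a. Their mean level over the 7 groups ran from 59.6 to 71.3 CPM for Ndufv1, 359 to 539 CPM for Sdhb, 10.2 to 18.5 CPM for Uqcrc1, 791 to 1119 CPM for Cox4i1 and 133 to 169 CPM for Cox5a. Among tissue isoforms, Cox7a1, the heart and muscle form of a complex IV subunit, averaged 28.8 ± 9 CPM in CT26 alum and 16.1 ± 4.19 CPM in 4T1 alum, and 29.3 ± 5.9 CPM and 15.5 ± 3.51 CPM under EC CAT. The log2 fold change was 0.85 ± 0.23 (SE) under alum (adjusted p = 0.00768) and 0.93 ± 0.18 under EC CAT (adjusted p = 5.06e-04), by edgeR. Of 8 skeletal muscle genes, 2 of 7 tested were higher in CT26 under alum and 1 of 8 was lower under EC CAT, and their part in the Cox7a1 result was not tested. Cox8b, the other muscle form, had 0.59 ± 0.77 under alum (adjusted p = 0.564) and -0.24 ± 0.38 under EC CAT (adjusted p = 0.636). The lung and hypoxia form Cox4i2 and the hypoxia form Ndufa4l2 were too low to compare between lines: Ndufa4l2 had 17 counts in all CT26 alum tumors together and 8 in all 4T1 alum tumors, and Cox4i2 had none in either.

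Other genes of the pathway differed between lines in both directions. Of mitochondrially encoded subunits, 3 of 10 tested were higher in CT26 under alum (mt-Nd6, mt-Co1 and mt-Nd5) and none was lower, with a median log2 fold change of 0.01 and 5 of 10 above 0. Under EC CAT none of 11 passed by edgeR, 1 (mt-Co1) had an unadjusted p under 0.05, and the median was 0.13. As a share of counts, mitochondrially encoded RNA was lower in CT26 on average, at 2.85% ± 0.489 against 3.66% ± 0.403 in 4T1 under alum (SD, n = 5 each) and 3.16% ± 0.435 against 3.53% ± 0.429 under EC CAT (n = 6 each). Of 37 assembly factors outside the symbol rule, 5 were higher and 4 lower of 34 tested under alum, and 8 and 5 of 35 under EC CAT. Of 17 electron carrier genes, 3 were higher and 2 lower under alum and 4 and 1 under EC CAT, and of 17 genes of the citrate cycle and pyruvate dehydrogenase 3 and 1, then 7 and 1. Of regulators of mitochondrial biogenesis, none was higher and 4 of 11 (Myc, Twnk, Tfb2m and Yy1) were lower in CT26 under alum, and 5 of 12 (the same 4 and Tfam) under EC CAT. Of 8 genes of hypoxic respiration, 4 were higher and 1 lower under alum and 2 and 1 under EC CAT, and of 8 genes of uncoupling and ATP exchange 2 and 0, then 3 and 1. Mitochondrial ribosomal proteins had 14 higher and 7 lower of 78, then 20 and 7, with medians of 0.10 and 0.17. Cytosolic ribosomal proteins had 56 higher and 1 lower of 81, then 67 and 1, with medians of 0.65 and 0.69.

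No member passed the test between EC CAT and alum in CT26 or in 4T1. In CT26, 0 of 93 members passed by edgeR (0 of 12830 genes, 0%), none had an unadjusted p under 0.05 (against 2.42% of genes), and DESeq2 called no member. The study, which left out some shallow technical libraries, did report a few significant genes for EC CAT in CT26 by DESeq2. The median log2 fold change of EC CAT against alum was 0.12, with 82 members above 0 (88.2%, against 49.3% of genes), and it ranged from 0.04 to 0.24 when single tumors were left out and was 0.11 in library 1 alone and 0.12 in library 2 alone. The smallest p were those of Ndufa4, at 0.53 ± 0.28 (SE, adjusted p = 1.00), and Ndufs8, at 0.44 ± 0.25, and among lower genes Ndufaf6 at -0.24 ± 0.23 and Atp5d at -0.11 ± 0.12. In 4T1, 0 of 93 passed (0 of 13092 genes, 0%), 1 had an unadjusted p under 0.05 (1.08%, against 2.88%), and DESeq2 gave none. The groups overlapped for every member in CT26 (0.259% of 14646 genes did not) and in 4T1 (0.369%). The median in 4T1 was -0.07, with 26 members above 0 (28%, against 49.5%), and it was 0.12 with the pool as a block and ranged from -0.14 to 0.06 without single tumors. Library 1 alone gave -0.04 and library 2 alone -0.02. Atp5g2 had the smallest p, at -1.08 ± 0.45 (adjusted p = 0.999), followed by Sdhc at -0.27 ± 0.15 among lower genes and by Cox5b-ps at 0.50 ± 0.31 and Ndufaf8 at 0.34 ± 0.21 among higher genes. Reads could be split between Cox5b-ps and Cox5b. Sdhc changed sign with the pool as a block. An interaction term between line and EC CAT passed for none of 93 members by edgeR (0 of 14160 genes, 0%), with no member at an unadjusted p under 0.05 (against 3.59% of genes) and none by DESeq2, and the median difference was 0.16.

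In 4T1-CAT tumors, 90 of 93 members lay below 0 under EC CAT against alum, where 50.1% of all genes did, and none passed the test. The median was -0.30, where that of all 13093 genes was -0.00066 and that of the lowest length quartile was -0.17, and it was -0.15 with the length trend removed. By edgeR 0 members passed (0% of genes), 16 had an unadjusted p under 0.05 (17.2%, against 15.3% of genes), the smallest adjusted p was 0.187, and DESeq2 gave none. The groups overlapped for every member, where 2.77% of genes did not. All complexes lay in the same direction, with medians of -0.28 (complex I), -0.22 (II), -0.31 (III), -0.34 (IV) and -0.28 (V). In library 1 alone the median was -0.24 and in library 2 alone -0.03, and it was -0.22 without the 2 libraries that share an index tag. Without single tumors it ranged from -0.38 to -0.19, the latter without 4T1-CAT alum replicate 3. Cox8b had the smallest p: it measured 4.73, 3.22, 2.19, 2.51 and 3.25 CPM under EC CAT and 7.54, 5.86, 12.3, 4.35 and 9.86 CPM under alum. The groups overlapped, and the log2 fold change was -1.28 ± 0.31 (SE, adjusted p = 0.187). Cox5b-ps followed at -0.94 ± 0.24, and Uqcrfs1, at 0.10 ± 0.10, and Ndufaf1, at 0.01 ± 0.23, were among the 3 genes above 0. All 8 skeletal muscle genes also lay below 0 (median -0.70, none past the test), and their summed level was 185 to 274 CPM under EC CAT and 241 to 597 CPM under alum. T cell (3 of 3), fibroblast (6 of 6) and adipocyte (2 of 2) genes lay below 0 too. Directions of the macrophage, neutrophil, endothelial, erythroid and epithelial lists are not given here, so these lists do not describe the whole makeup. The part of these in the values of the members was not tested. Set against the EC CAT effect in parental 4T1, the difference had a median of -0.23 and passed for none of 93 by edgeR (0% of 13851 genes, 3 members at an unadjusted p under 0.05, against 8.79% of genes) or DESeq2.

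Intracellular catalase alone, as 4T1-CAT against 4T1-control under alum, gave the members a median log2 fold change of 0.01, with 51 above 0. None of 93 passed by edgeR (0 of 12534 genes, 0%), DESeq2 called no member, and 1 had an unadjusted p under 0.05 (1.08%, against 5.08%). The study, which left out some shallow technical libraries, did report significant genes in this comparison by DESeq2. Library 1 alone gave a median of 0.0108 and library 2 alone 0.0565. The 4T1-CAT alum tumors of this comparison are also the controls of the EC CAT comparison in 4T1-CAT. Cox7a1 had the smallest p, at -0.59 ± 0.26 (SE, adjusted p = 0.926): it measured 9.39, 12.3, 22.8, 14 and 9.86 CPM in 4T1-CAT and 13.7 CPM at the lowest, 20.1 at the median and 29.3 at the highest in 4T1-control tumors. Ndufa7 followed at -0.34 ± 0.17, and Cox8b at 0.86 ± 0.43 and Ndufaf3 at 0.29 ± 0.16 among higher genes. All 8 skeletal muscle genes lay above 0 here (median 0.81, none past the test), and all 11 mitochondrially encoded genes tested lay below 0 (median -0.16, none past the test).

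With intracellular and extracellular catalase together, as 4T1-CAT EC CAT against 4T1-control alum, 0 of 93 members passed by edgeR (against 0.0235% of 12781 genes, 0.0156% higher and 0.00782% lower), while DESeq2 gave 5, all lower. The shares of all genes called by DESeq2 and in the other settings below are not given here. Counts in those settings therefore cannot be read as particular to the members. An unadjusted p under 0.05 was reached by 28 members (30.1%, against 16.9% of genes), and the smallest adjusted p was 0.0981. The median was -0.25, with 15 members above 0 (16.1%, against 53.7% of genes), where the lowest length quartile had -0.09, and it was -0.16 with the length trend removed. Library 1 alone gave -0.18 and library 2 alone gave 0.05, and the edgeR count was 4, all lower, with no filter on low counts and again without 4T1-control alum replicate 3. Cox7c, a small complex IV subunit, measured 1234, 1471, 1769, 1364 and 973 CPM in the 4T1-CAT EC CAT tumors and 1559 CPM at the lowest, 2173 at the median and 2769 at the highest in the 4T1-control tumors. The groups overlapped, and the log2 fold change was -0.70 ± 0.18 (SE, adjusted p = 0.0981). Ndufc1 of complex I followed at -0.63 ± 0.17 (adjusted p = 0.104). Of genes above 0, Atp5g3 was at 0.13 ± 0.13 and Uqcr11 at 0.16 ± 0.19. This comparison and the one before share the 4T1-control tumors, and this one shares the 4T1-CAT EC CAT tumors with the EC CAT comparison in 4T1-CAT. Between the GFP line and its parent under alum, which also differ by doxycycline feed and, for 2 of the 5 parental tumors, by index pool, the median was 0.13 and none of 93 passed by edgeR (0% of 12431 genes, 1 member at an unadjusted p under 0.05, against 10.5%) or DESeq2. The smallest p were those of Ndufa8 at -0.37 ± 0.16 and Uqcr11 at -0.37 ± 0.19, and of Ndufa1 at 0.34 ± 0.17 and Cox7c at 0.38 ± 0.19 among higher genes, and the median was 0.03 with the pool as a block, 0.0934 in library 1 alone and 0.00865 in library 2 alone. It shares its 4T1-control tumors with the comparisons of 4T1-CAT and its 4T1 alum tumors with those of parental 4T1. Uqcr11 changed sign in library 1 alone, both here and for 4T1-CAT EC CAT against 4T1-control.

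**Figure D5:**
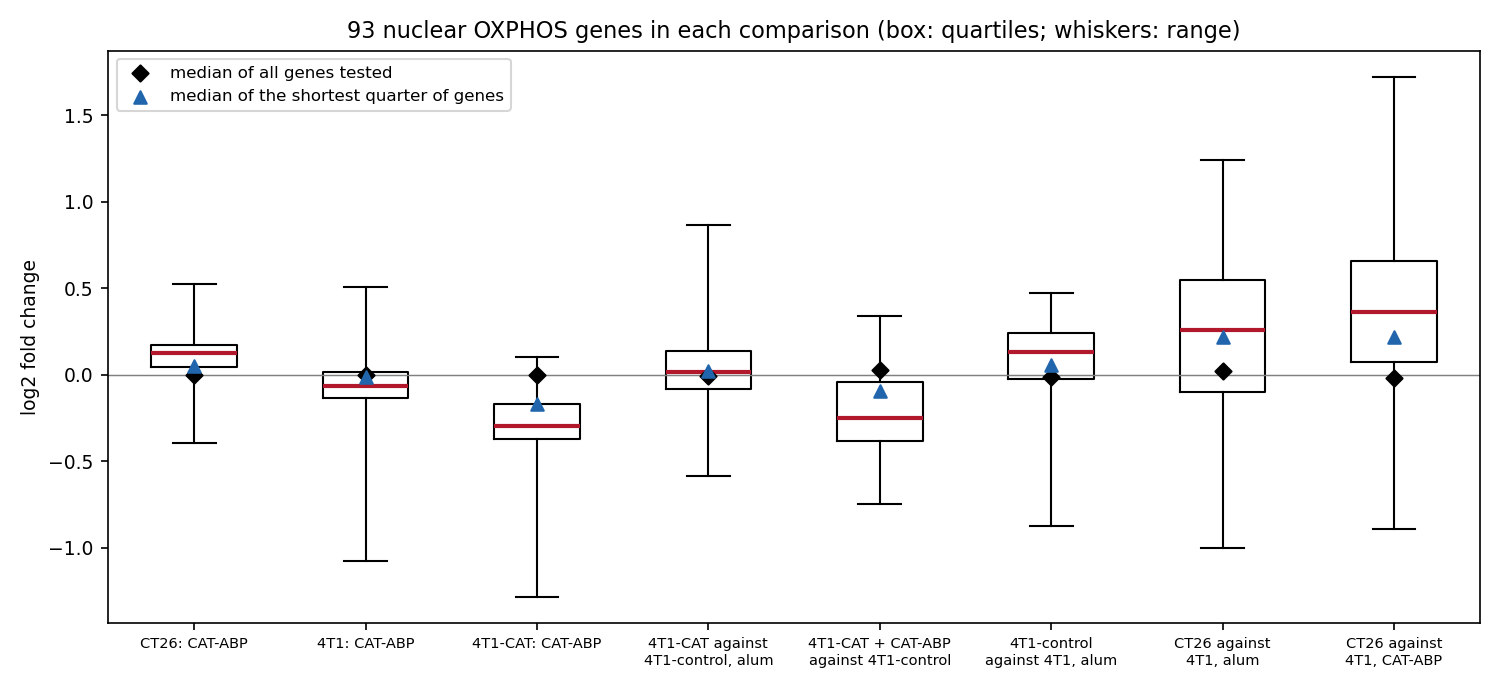
Log2 fold changes of the 93 genes in 8 comparisons (box: quartiles, red line: median, whiskers: lowest and highest gene), with the medians of all genes tested (black) and of the lowest length quartile (blue). The members' median lies farther from 0 than that quartile's in 7 of the 8 comparisons.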

How the data were processed

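RNA of 38 mouse tumors was measured by 3′ digital gene expression, with 2 technical libraries per tumor. The deposited table holds the authors' estimated counts per gene from a Smart-seq2 type pipeline, and 39.7% of its values above 0 are not whole (tolerance 1e-06). The aligner and genome build are not given in the sources used here. A 3′ method counts the transcript end, so counts were not divided by length. Replicates are separately labelled tumors.

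Here technical libraries were summed per tumor and rounded. Genes were filtered with filterByExpr, scaled by TMM and tested by edgeR's quasi-likelihood test (edgeR 4.0.16, R 4.3.3), with groups of 1 comparison in each fit. P-values were adjusted by Benjamini-Hochberg over all genes tested, and an adjusted p of at most 0.05 was called. CPM values are TMM-normalised and scaled to library size. Differences of effects were interaction terms. Single genes were also compared by exact two-sided permutation tests of log2 CPM. The scripts were tested on simulated data. Alternatives were DESeq2 1.42.0, its size factors, other filters, 1 model over all groups, a replicate block, a pool block, removal of a gene length trend (GENCODE M21 exon lengths), each technical library alone, omission of shallow libraries and omission of single tumors. Leaving out the 2 libraries that share an index tag was chosen after seeing the data. Library totals ran from 46233 to 6958626 counts, and 7 of 76 were under 0.25 of the median. Depth limits low genes most.

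The members, gene lists and tests were chosen with earlier results of these data known. Named members are up to 6 called per direction and comparison by size of change, or the 2 smallest p per direction where none was called, plus a fixed set of isoform and core genes, the genes called in both comparisons of CT26 with 4T1, and those next to the count limit. Lists cover mitochondrially encoded subunits, other assembly factors, electron carriers, the citrate cycle, biogenesis regulators, hypoxic respiration, uncoupling and ATP exchange, ribosomal proteins and markers of muscle, immune, stromal, fat, erythroid and epithelial cells. The human catalase transgene was not analysed here, and the values of 1 member are not reported here.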

Additional observations from a re-analysis of the deposited data

Results flagged for a closer look

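In each group of 5 or 6 tumors, the lowest or highest tumor was set against the rest for 315 gene or score and group pairs, and in 11 of them (3.49%) it stood apart by Dixon's criterion, which chance alone meets in about 1 in 20 groups. The mean log2 CPM of complex IV was 7.27 in CT26 EC CAT replicate 2, below 7.76 to 8.05 in the others, and leaving this tumor out raised the count of members that differed between CT26 and 4T1 under EC CAT from 38 to 58. The share of all genes called without this tumor is not given here. Atp5g2, which is low in CPM, was 25.3 CPM in CT26 EC CAT replicate 3 (4.58 to 11.2 in the others) and 18.5 CPM in CT26 alum replicate 4 (7.82 to 10.9). In CT26 alum, replicate 5 had 546 CPM of Ndufs8 (222 to 304) and 342 CPM of Atp5g3 (265 to 283), and replicate 2 had 11.2 CPM of Ndufaf6 (5.80 to 7.34). In 4T1-CAT alum, replicate 5 had 14.99 CPM of Ndufaf6 (7.61 to 9.23) and replicate 3 had 22.1 CPM of Ndufaf5 (12.9 to 15.1). In 4T1 EC CAT, replicate 4, which has 837403 counts in all, had 39.6 CPM of Atp5d (63.6 to 70.5) and 32.4 CPM of Uqcrc1 (7.85 to 17.0). Uqcrc1 was also high in 4T1-control alum replicate 1, at 25.9 CPM (9.07 to 14.1). No causes were tested.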

How the results depend on the processing

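Of 172 medians recomputed under alternatives, 171 moved by less than the spread between tumors, and of 164 counts of members called per comparison, 156 stayed within 1.5 times. Both are loose limits. The EC CAT median in 4T1 changed sign with the pool as a block, and that in 4T1-CAT was much smaller in size in technical library 2 alone. Most comparisons called 0 members in the main fit, and 0 again counts as unchanged. Between CT26 and 4T1 under alum, technical library 2 alone called 17 members, and omission of single tumors gave 15 to 29. Under EC CAT it gave 32 to 58. For 4T1-CAT EC CAT against 4T1-control alum, the count was 4 with no filter on low counts and 5 by DESeq2, omission of single tumors gave 0 to 4, and the median was 0.0511 in technical library 2 alone. Over the 5 groups of 4T1-derived tumors DESeq2 called 1 member. All these counts are of members alone, without the share of all genes under the same setting. Of the 21 members called in both comparisons of CT26 with 4T1, 15 to 21 were called in both under the 9 alternatives. Changes of sign were found for uncalled genes, only some of them near 0. Sdhc in 4T1, at -0.27, and Uqcr11 for 4T1-control against 4T1, at -0.37, were not near 0 in the main fit. Atp5d in CT26 was 0.00743 in technical library 2 alone and Sdhc in 4T1 was 0.0279 with the pool block. Ndufaf1 in 4T1-CAT was -0.0062 with DESeq2 size factors, -0.0079 by DESeq2, -0.0508 without the libraries of 1 index tag and -0.098 to 0.187 without single tumors. In technical library 1 alone Uqcr11 was 0.17 for 4T1-control against 4T1 and -0.30 for 4T1-CAT EC CAT against 4T1-control, where it ran from -0.00433 to 0.275 without single tumors, and Atp5g3 was -0.0164. The causes were not tested. The shallowest tumors, of 493044 and 837403 counts, limit low genes.

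In no comparison did every pair of tumors with the same replicate number correlate over 0.1 in their deviations. Single pairs ran from -0.51 (4T1-CAT against 4T1-control) to 0.55 (CT26 against 4T1 under EC CAT). A rule that 1 low pair can fail cannot exclude pairing by number, and the tumors were treated as unpaired. With the replicate number as a block, 27 members were called between CT26 and 4T1 under alum, 45 under EC CAT, 51 over all 7 groups and 0 in the other comparisons. These counts, too, are of members alone. A pool block could be fitted for 3 comparisons.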
